A study of Mus musculus with 6 samples.

Results

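Glutathione metabolism genes were compared between CD36+ NK and CD36- NK cells of the fibrotic mouse liver. The genes were the rows that the deposited table assigns to the mouse KEGG entry for glutathione metabolism, without Gpx4, Hpgds, Rrm1 and Rrm2, and with at least 10 counts summed over the 6 libraries. The table holds 57180 genes, of which 72 carry the entry, 68 remained after the 4 symbols were left out, and 48 reached the count minimum. The rule itself holds no difference between the groups, though it was set with earlier results of these data known. Of the 42 genes that could be tested, 4 passed an adjusted p of 0.05. Transcripts of 2 peptidases, Anpep and Lap3, were more than 2-fold higher in CD36+ NK, and Gpx8, a peroxidase of the endoplasmic reticulum, was 5.43-fold lower. Gpx1, the most abundant of the 48, rose 1.95-fold, and it too no longer passed in several of these fits. None of the 3 genes of glutathione synthesis passed the test. Gclm and Gss did pass it in a fit blocked by assumed pairs of library names, which no label states to be pairs.

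Both groups came from the liver of male C57BL/6J mice aged 6 to 8 weeks. All animals received carbon tetrachloride (CCl4), which injures hepatocytes and causes fibrosis, as 2.5 ml/kg of a 20% solution in olive oil by intraperitoneal injection 2 times per week for 4 weeks, and tissue was taken 48 h after the last injection. Natural killer (NK) cells are innate lymphocytes that kill stressed cells. They were gated as CD3- NK1.1+ and separated by surface CD36, a scavenger receptor that takes up fatty acids, and 400 ng of RNA per sample was sequenced. There were 3 libraries titled CD36+ NK and 3 titled CD36- NK, and no untreated animals in this comparison, so every library comes from injured liver. The series design calls the libraries biological triplicates, but no label ties a library to an animal or says how many animals were pooled, so the p-values measure the spread between these libraries only.

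Glutathione is a tripeptide that is built by glutamate-cysteine ligase and glutathione synthetase and serves as the main soluble thiol of the cell. Peroxidases spend it to reduce hydrogen peroxide and lipid hydroperoxides, transferases couple it to electrophiles, and glutathione reductase regenerates it with NADPH from the pentose phosphate pathway and isocitrate dehydrogenases. Outside the cell it is taken apart by gamma-glutamyl transferases and peptidases, and the liver is its main producer in the body. The study asks whether CD36 is tied to lipid peroxidation and ferroptosis in NK cells, and glutathione is a cofactor of the defence against both.

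The libraries held 10292480 to 13787189 counts, and the common biological coefficient of variation was 20.3%. Cd36 itself was at 110, 263 and 238 CPM (counts scaled to library size) in CD36+ NK and at 14.3, 31.7 and 17.1 CPM in CD36- NK, with a log2 fold change of 3.27 ± 0.426 (SE; edgeR quasi-likelihood test, adjusted p = 0.00615). The names of the sequencing libraries write the CD36 sign differently from the sample titles, and the titles were followed. The libraries differed in the RNA of other cell types. All 12 NK lineage markers were lower in CD36+ NK, where their summed level was 1207 to 1472 CPM against 6288 to 8210 CPM, and Klrb1c, which encodes the NK1.1 antigen used in the gate, was at 77.9 to 106 CPM against 448 to 524 CPM. Macrophage and Kupffer markers summed to 6624 to 9292 CPM in CD36+ NK and 2422 to 5744 CPM in CD36- NK, 10 of 12 were tested, all 10 had a log2 fold change above 0 with a median of 2.89, and 3 were called higher. Without Lyz2, which myeloid cells share and whose log2 fold change was 0.09, these sums were 2319 to 5807 CPM and 369 to 1414 CPM. In the same 2 groups, B cell markers summed to 11526 to 13253 CPM and 7017 to 9208 CPM, with 6 of 8 past the adjusted p, and erythroid markers to 351 to 794 CPM and 76.9 to 171 CPM, with 5 of 8 called higher. T cell markers summed to 353 CPM in CD36+ NK 1 and to 34.3 to 59.0 CPM in the other 5 libraries. Within that list Cd4 and Cd8a were called higher at 5.05-fold and 8.99-fold, with every CD36+ NK library above every CD36- NK library. Cd8a was at 63.2 CPM in CD36+ NK 1 and at 8.98 and 16.5 CPM in CD36+ NK 2 and 3. Cd3d, Cd3e, Cd3g, Trac and Trbc2 were highest in CD36+ NK 1, but lower in CD36+ NK 2 and 3 than in every CD36- NK library. The neutrophil sum was also highest in CD36+ NK 1, at 2466 CPM against 468 to 1820 CPM. Clec4f, a Kupffer cell receptor, reached 45.9 CPM in CD36+ NK 2, was at 1.51 CPM in CD36+ NK 1, and was at 0 in the other 4 libraries. In CD36+ NK against CD36- NK, the macrophage receptor gene Csf1r was at 1138 to 2342 against 242 to 748 CPM, the B cell gene Cd79a at 941 to 1088 against 644 to 825 CPM, the globin gene Hbb-bs at 150 to 336 against 31.1 to 68.7 CPM and the neutrophil gene S100a8 at 121 to 824 against 282 to 620 CPM. Monocyte and dendritic sums were 811 to 1385 and 299 to 363 CPM in CD36+ NK against 1313 to 1878 and 475 to 657 CPM in CD36- NK, yet Cd14 of the monocyte list was called higher at 3.25-fold. Of the 8 dendritic markers 6 had a log2 fold change above 0, with Xcr1 and Clec9a called higher at 5.49-fold and 4.08-fold and Itgax called lower at 2.19-fold, and without Itgax the sums were 81.8 to 108 against 46.0 to 82.8 CPM. Hepatocyte, stellate, platelet and sinusoidal endothelial sums were 12 to 25.4, 6.77 to 8.81, 14.8 to 27.5 and 377 to 495 CPM in CD36+ NK and 7.81 to 10.8, 2.44 to 5.61, 17.5 to 19.3 and 299 to 342 CPM in CD36- NK. In these lists Pdgfrb, Pf4 and Ppbp were called higher at 5.67-fold, 2.78-fold and 2.63-fold, Pecam1 passed the adjusted p at 1.3-fold, and Stab2 was at 32.8 to 89.0 against 2.54 to 17.2 CPM without passing. The other tested platelet genes, Itga2b and Gp1bb, had log2 fold changes of -0.43 and -0.89 and did not pass. Alb, of hepatocytes, and Col1a1, of stellate cells, did not exceed 7.8 and 0.915 CPM in any library. In these bulk samples fewer cells of a type and less RNA per cell cannot be told apart.

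The 48 genes ranged from a mean of 0.0551 FPKM for Gsto2 to 144 FPKM for Gpx1 on the deposited FPKM scale, which divides by gene length and so allows levels of different genes to be set side by side. After Gpx1 came Gsr at 63.3, G6pdx at 36.1, Pgd at 28.1 and Odc1 at 25.2 FPKM. The ranges of G6pdx and Pgd overlapped, at 23.7 to 46.0 and 20.8 to 33.6 FPKM, as did those of Pgd and Odc1, the latter at 16.8 to 32.2 FPKM. There were 12 genes with a mean above 10 FPKM and 14 with a mean under 1 FPKM. The summed level of the 48 genes was 535 to 563 FPKM in CD36+ NK and 310 to 442 FPKM in CD36- NK, without overlap, and Gpx1 alone made up 20.2% to 37.0% of it. The single genes are described by role.

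**Figure D1:**
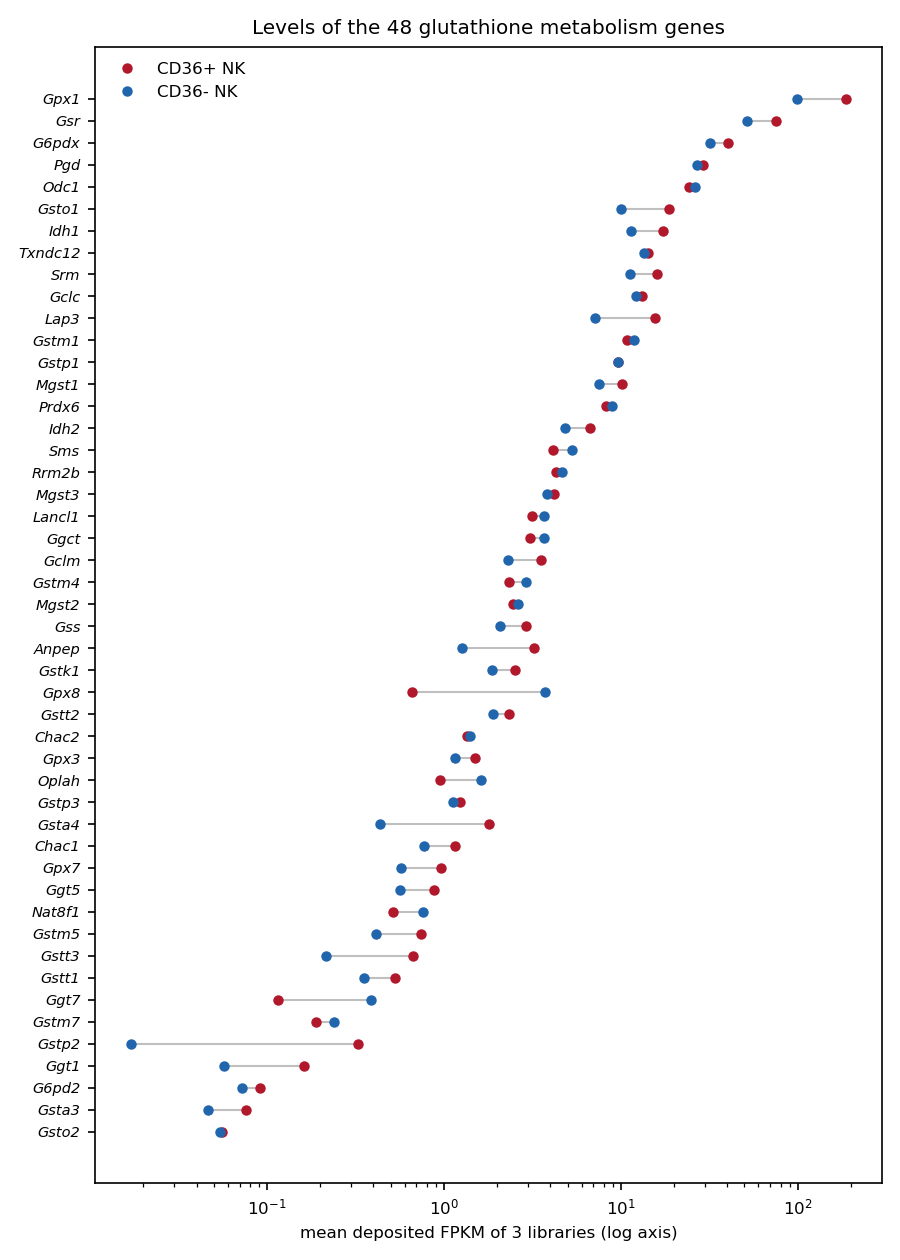
Mean deposited FPKM of each of the 48 genes on a log axis, with 1 red point for the 3 CD36+ NK libraries and 1 blue point for the 3 CD36- NK libraries, ordered by the mean of all 6. Gpx1 lies at the top at 188 and 99.4 FPKM, and the widest gaps among genes above 1 FPKM belong to Gpx8, Anpep, Lap3 and Gsta4.

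Of the 48 genes, 42 passed the filter on low counts and were tested among 14761 genes. Called genes had an adjusted p under 0.05 and a fold change above 2, the thresholds that the study used. Called higher in CD36+ NK were 2 genes, where 2.98% of all tested genes were called higher, and called lower was 1 gene, where 2.98% of all tested genes were called lower. In either direction 7.14% of the 42 were called beside 5.96% of all tested genes, and at any fold 9.52% passed the adjusted p beside 10.5% of all tested genes, so the share that passed was near that of the table as a whole. An unadjusted p under 0.05 was reached by 14 of the 42, or 33.3%, beside 26.3% of all tested genes.

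Smaller differences leaned upward in CD36+ NK. The log2 fold change was above 0 in 28 of the 42 genes, or 66.7%, beside 51.9% of all tested genes, and its median was 0.35 beside 0.01. All 3 CD36+ NK libraries lay above all 3 CD36- NK libraries in 13 of the 42 genes, or 31.0%, beside 17.0% of all tested genes. They lay below in 4 genes, or 9.52%, beside 15.7%, and in 25 genes the groups overlapped. For 18 of the genes that did not pass the adjusted p, the 95% interval of the fold change lay within 2-fold in both directions. No test was made of the list as a whole.

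**Figure D2:**
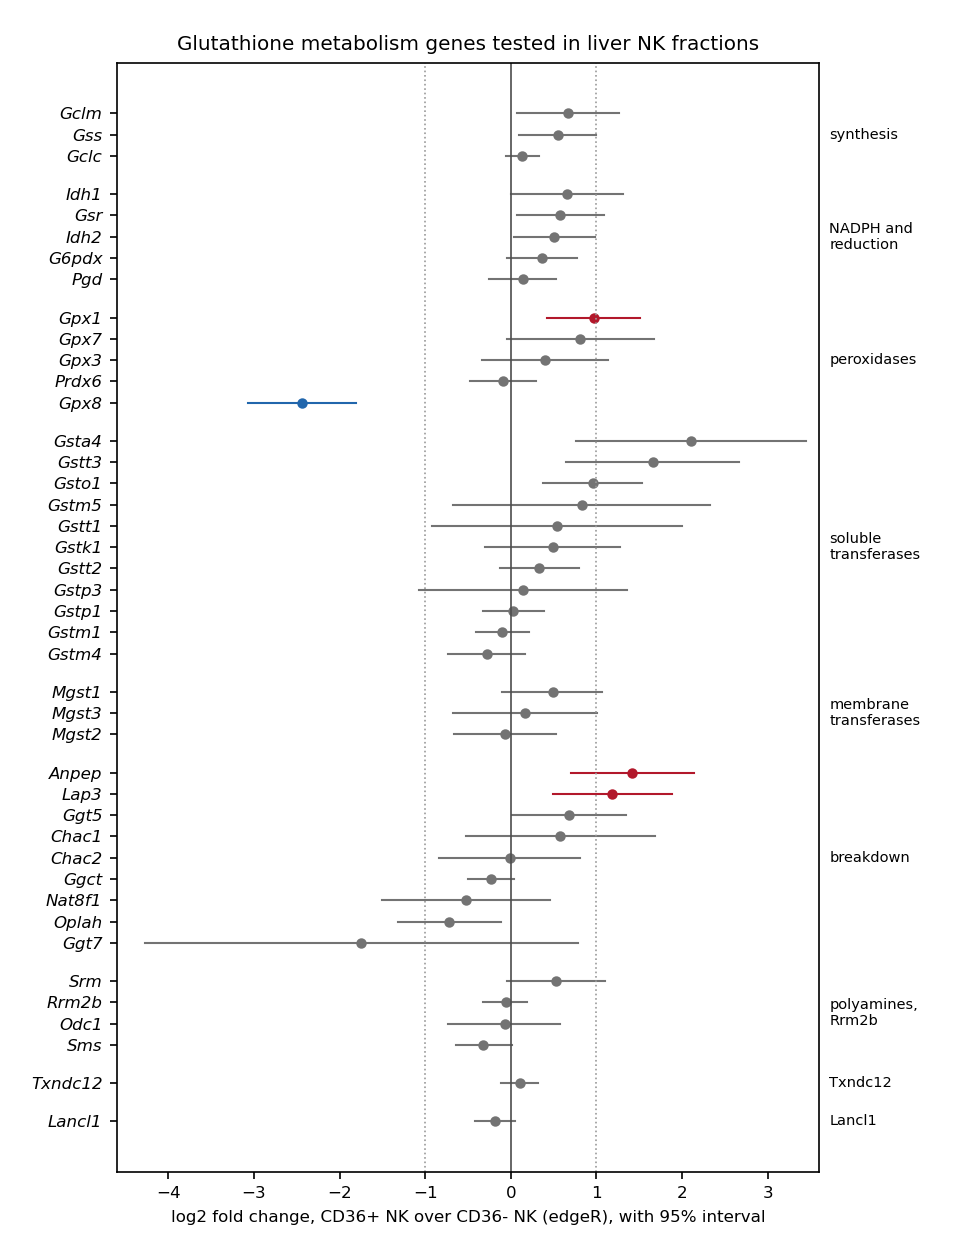
Log2 fold change of CD36+ NK over CD36- NK for the 42 tested genes, grouped by role, with the 95% interval of the edgeR fit as a line and the dotted lines at a 2-fold change. Red marks Gpx1, Anpep and Lap3 and blue marks Gpx8, the 4 genes past an adjusted p of 0.05, and grey marks the other genes, whose intervals often reach 0.

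Synthesis of glutathione showed no gene past the adjusted p in edgeR or in DESeq2, and 2 of its 3 genes had an unadjusted p under 0.05. With assumed pairs of library names as a block, Gclm and Gss passed at an adjusted p of 0.0189 and 0.0379 in edgeR. The pairs joined CD36+ NK 1, 2 and 3 with CD36- NK 1, 3 and 2, and no label states them to be pairs. The names shared a written form within each pair, but a number only for CD36+ NK 2 and CD36- NK 3. Gclc, the catalytic subunit of glutamate-cysteine ligase and the rate-limiting step, was at 52.2, 53.6 and 51.5 CPM in CD36+ NK and 45.9, 47.6 and 49.9 CPM in CD36- NK. The groups did not overlap, yet the log2 fold change was 0.13 with a 95% interval of -0.06 to 0.33 (adjusted p = 0.373), so a change of Gclc as large as 2-fold lies outside the interval. Gclm, the modifier subunit of the same enzyme, was at 29.2, 20.6 and 34.5 CPM against 18.2, 21.9 and 12.8 CPM, and its groups overlapped at CD36+ NK 2 and CD36- NK 2. Its log2 fold change was 0.67 ± 0.253 (SE; adjusted p = 0.145). Gss, which adds glycine to complete the tripeptide, was at 21.5, 22.7 and 27.9 CPM against 13.5, 20.4 and 15.3 CPM, with a log2 fold change of 0.55 ± 0.189 (SE; adjusted p = 0.116, and 0.0432 without CD36- NK 2). Gss overlaps Acss2 on the opposite strand, whose log2 fold change was -1.23, and whether the counting used strand is not given in the sources used here.

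Genes that supply NADPH or reduce oxidized glutathione all had a log2 fold change above 0, from 0.14 to 0.66 over the 5 tested, and none passed the adjusted p in edgeR or in DESeq2, with 3 at an unadjusted p under 0.05. Gsr, glutathione reductase, was at 224, 235 and 221 CPM in CD36+ NK and at 172, 183 and 99.1 CPM in CD36- NK. Its groups did not overlap, CD36- NK 3 was far below the other libraries of its group, and the log2 fold change was 0.58 with an interval of 0.07 to 1.09 (adjusted p = 0.139). G6pdx, the enzyme that opens the pentose phosphate pathway, was at 175, 140 and 155 CPM against 143, 131 and 92.0 CPM, with a log2 fold change of 0.36 and an interval of -0.05 to 0.77. Pgd, which catalyses a later NADPH-yielding step of the same pathway, differed less, with a log2 fold change of 0.14 and an interval of -0.25 to 0.53. Idh1, the cytosolic isocitrate dehydrogenase, had a log2 fold change of 0.66 ± 0.278 (SE; adjusted p = 0.189). Its lowest CD36+ NK library, at 60.9 CPM, lay under the highest CD36- NK library, at 62.8 CPM. Idh2, the mitochondrial form, had a log2 fold change of 0.51 ± 0.200 (SE; adjusted p = 0.159, and 0.0414 with the pairs of library names as a block).

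Several genes of synthesis and NADPH supply are known targets of the transcription factor NRF2, which binds the antioxidant response element. The core of that element, TGACNNNGC, was searched on both strands in the 300 bases around each RefSeq transcription start, from 250 bases before to 50 bases after it. A promoter was given for 39 of the 48 genes, and 9 of these, or 23.1%, held a match, beside 14.0% of the 27025 genes with a promoter. Of the matched genes 6 were tested and 0 passed the adjusted p in edgeR or in DESeq2, apart from Gclm in the fit blocked by pairs of library names. The windows of 4 genes of synthesis, NADPH supply and conjugation that are described by value are shown because they let the core be read in its own surroundings. They are from RefSeq on GRCm38.p6 and run 5′ to 3′ on the strand of the match, with the match in capitals. The window of G6pdx lies at chrX:74428919-74428947 on the plus strand, that of Gclm at chr3:122245413-122245441 on the minus strand, that of Pgd at chr4:149166061-149166089 on the minus strand and that of Mgst1 at chr6:138140461-138140489 on the minus strand.
G6pdx: gcgtgtgcttTGACTGAGCtgacccgcct
Gclm: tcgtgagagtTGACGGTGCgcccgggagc
Pgd: atttcagagcTGACATTGCactgatcgga
Mgst1: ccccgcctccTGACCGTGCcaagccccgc
A match is a description of these letters and not evidence of binding.

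Peroxidases held both an upward and a downward change. Gpx1, the abundant selenium-dependent peroxidase of cytosol and mitochondria, at chr9:108216102-108217542 in the table's coordinates, was at 592, 684 and 682 CPM in CD36+ NK and at 391, 397 and 215 CPM in CD36- NK. Every CD36+ NK library lay above every CD36- NK library, and CD36- NK 3 was lowest. The log2 fold change was 0.97 ± 0.232 (SE), with an interval of 0.42 to 1.51 and an adjusted p of 0.0424, so Gpx1 rose but did not reach the 2-fold threshold. The adjusted p was 0.0559, 0.125, 0.127 and 0.0869 without CD36+ NK 1, 2 or 3 or without CD36- NK 1, while the log2 fold change stayed at 1.02, 0.93, 0.93 and 1.08. Without CD36- NK 3 the log2 fold change was 0.72 and the adjusted p 0.0210. With the form of the library name or the replicate number as a block the adjusted p was 0.0578 or 0.0709, and with the assumed pairs of library names it was 0.0463. The 6 libraries followed the order of the macrophage and Kupffer sum except for CD36+ NK 2 and 3, which were almost equal, and the part of these markers in the result was not tested.

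Gpx8, an endoplasmic reticulum peroxidase that takes part in oxidative protein folding, at chr13:113179287-113182944, had the lowest p of the 42 genes. It was at 1.16, 1.25 and 1.25 CPM in CD36+ NK and at 7.99, 4.86 and 7.13 CPM in CD36- NK, from 13, 17 and 15 counts against 104, 55 and 73 counts. The 3 CD36+ NK libraries were almost equal and all lay far below the CD36- NK libraries, with a log2 fold change of -2.44 ± 0.269 (SE; adjusted p = 0.00346). Gpx8 lies inside Cdc20b, a gene of the opposite strand with 588 counts over the 6 libraries and a log2 fold change of -2.85 (adjusted p = 0.00129), so reads of the pair may have been shared and the value of Gpx8 is uncertain. Gpx8 moved in the same direction as the NK lineage markers, whose median log2 fold change was -2.43, and the part of either in the result was not tested.

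The other peroxidases did not pass the adjusted p. Gpx7, a close relative of Gpx8 in the same compartment, had a log2 fold change of 0.81 with an interval of -0.04 to 1.67. Gpx3, the secreted plasma form, had 0.40 with an interval of -0.34 to 1.14. Prdx6, a peroxiredoxin that uses glutathione and reduces phospholipid hydroperoxides, was at 85.8, 62.7 and 79.6 CPM against 92.0, 66.1 and 85.0 CPM. Its groups overlapped, and the interval of -0.48 to 0.29 on the log2 scale leaves room for only small changes in either direction.

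**Figure D3:**
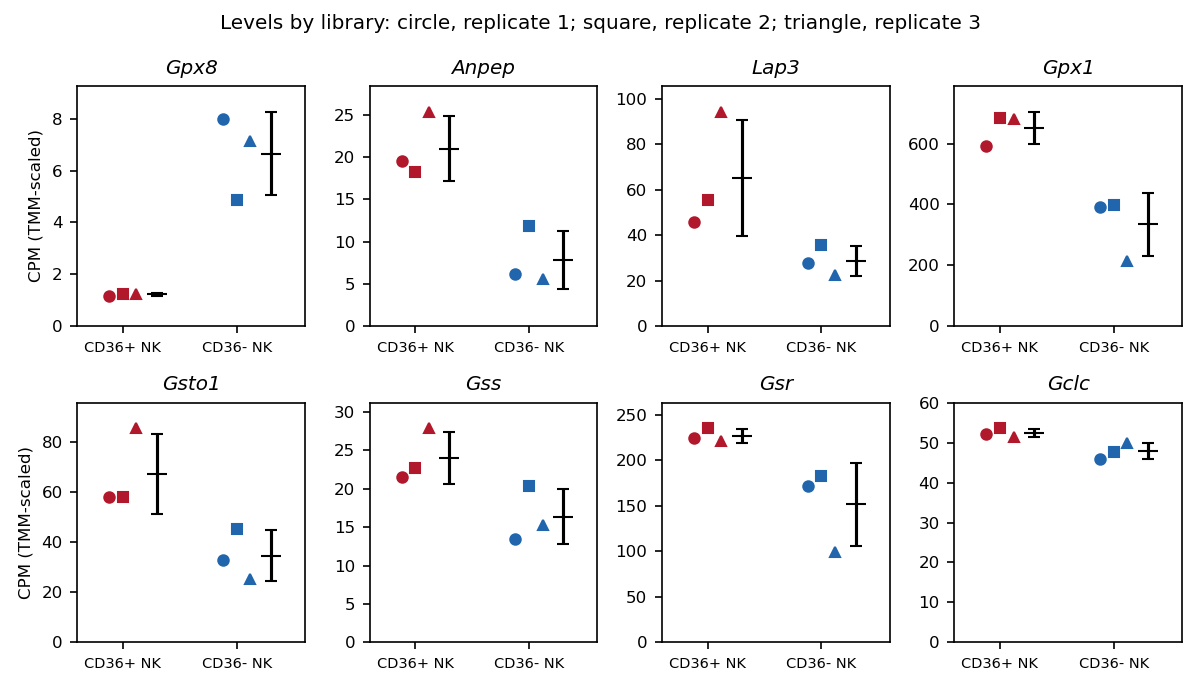
Library values of 8 genes in CPM scaled by TMM factors, with circles, squares and triangles for replicates 1, 2 and 3, and a black dash with bars for the mean ± SD of 3 libraries. Gpx8 is lower in every CD36+ NK library and the other 7 genes are higher in every CD36+ NK library, by little in Gclc. CD36- NK 3 is lowest in Anpep, Lap3, Gpx1, Gsto1 and Gsr.

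Soluble glutathione transferases, which conjugate glutathione to electrophiles, had 11 of 15 genes tested. None passed the adjusted p in the main edgeR fit, 3 had an unadjusted p under 0.05, and the same 3 passed in DESeq2. In other edgeR fits, Gsto1 passed with upper-quartile factors (adjusted p = 0.0478), among genes with at least 10 counts in every library (0.0493), with the pairs of library names as a block (0.00888) and without CD36- NK 2 (0.0216). Gsta4 passed with those pairs as a block (0.0410), and Gstt3 passed without CD36- NK 2 (0.0376). Gsto1, an omega class enzyme that reduces as well as conjugates, came closest at 57.9, 58.0 and 85.3 CPM in CD36+ NK and 32.9, 45.3 and 25.4 CPM in CD36- NK. Its groups did not overlap, and the log2 fold change was 0.96 with an interval of 0.38 to 1.53 (adjusted p = 0.0505, and 0.00267 in DESeq2). The order of the 6 libraries by Gsto1 matched that of the macrophage and Kupffer sum, whose part in the result was not tested. Gstt3, a theta class enzyme, was at 3.56, 4.78 and 3.33 CPM against 1.31, 1.86 and 0.488 CPM, with a log2 fold change of 1.66 ± 0.431 (SE; adjusted p = 0.0541). Gsta4, an alpha class enzyme that conjugates the lipid peroxidation product hydroxynonenal, was at 1.6, 1.47 and 4.91 CPM against 0.538, 0.707 and 0.586 CPM, with a log2 fold change of 2.10 ± 0.571 (SE; adjusted p = 0.0611) that was 1.32 without CD36+ NK 3. Every CD36+ NK library lay above every CD36- NK library for all 3 genes, and Gsta4 was about as high in CD36+ NK 1 as in CD36+ NK 2, with CD36+ NK 3 far above both.

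The most abundant other soluble transferases lay close to equality. Gstm1, a mu class enzyme with a mean of 11.3 FPKM, had a log2 fold change of -0.10 with an interval of -0.41 to 0.21, and Gstp1, the pi class enzyme with a mean of 9.58 FPKM, had 0.03 with an interval of -0.32 to 0.39. A 2-fold change of either lies outside these intervals. Several pi and mu genes are near-identical copies, and the division of reads among Gstp1, Gstp2 and Gstp3 or among the Gstm genes is uncertain. Gstp2 had 8, 5 and 10 counts in CD36+ NK and 0, 0 and 1 counts in CD36- NK, too few for the main filter. It was called higher when every gene with at least 10 summed counts was fitted in edgeR (adjusted p = 0.0478). It met that minimum only through CD36+ NK, so this call is not independent of the filter.

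Membrane-bound transferases, which belong to the family that also makes cysteinyl leukotrienes, had 0 of 3 genes past the adjusted p in edgeR and in DESeq2, and 0 at an unadjusted p under 0.05. Mgst1, which also reduces lipid hydroperoxides, was at 47.3, 49.6 and 54.9 CPM in CD36+ NK and 42.6, 43.5 and 21.9 CPM in CD36- NK. The groups did not overlap, CD36- NK 3 stood below the rest, and the log2 fold change was 0.49 with an interval of -0.10 to 1.07 (adjusted p = 0.271). Mgst2 had a log2 fold change of -0.07 with an interval of -0.66 to 0.53, and Mgst3 had 0.16 with an interval of -0.68 to 1.01.

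Enzymes that break glutathione down held both genes called higher. Anpep, aminopeptidase N, a surface enzyme of myeloid cells that splits the dipeptide left by gamma-glutamyl transferases, at chr7:79471551-79510807, was at 19.5, 18.2 and 25.4 CPM in CD36+ NK and 6.15, 11.8 and 5.57 CPM in CD36- NK. Every CD36+ NK library was higher, and CD36- NK 2 was the highest of its group. The log2 fold change was 1.42 ± 0.305 (SE; adjusted p = 0.0312). Lap3, a cytosolic leucine aminopeptidase with a role in the same step, at chr5:45650716-45670033, was at 45.7, 55.5 and 94.4 CPM against 27.8, 35.7 and 22.5 CPM. The groups did not overlap, and CD36+ NK 3 was highest and CD36- NK 3 lowest. The log2 fold change of Lap3 was 1.18 ± 0.294 (SE; adjusted p = 0.0471), with an interval of 0.49 to 1.88. Both intervals include changes under 2-fold.

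Both calls were lost when CD36+ NK 2 or 3 or CD36- NK 1 or 3 was left out, with an adjusted p for Anpep of 0.0770, 0.107, 0.108 and 0.1 and for Lap3 of 0.0957, 0.0988, 0.136 and 0.148. The log2 fold change was then 1.52, 1.26, 1.25 and 1.22 for Anpep and 1.29, 0.82, 1.15 and 1.03 for Lap3, close to the values from all libraries except for Lap3 without CD36+ NK 3. Without CD36+ NK 1, the library with the high T cell and neutrophil sums, both remained called, and Gpx8 was called in each of the 6 omissions. The order of the 6 libraries by Lap3, from CD36+ NK 3 down to CD36- NK 3, is also their order by the summed macrophage and Kupffer markers. For Anpep the order differs only in CD36+ NK 1 and 2, which trade places, and the part of these cells in either result was not tested.

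The other 7 tested genes of breakdown did not pass the adjusted p. Ggt5, a surface gamma-glutamyl transferase that also acts on leukotrienes, was at 12.5, 7.80 and 9.48 CPM against 5.77, 8.31 and 4.49 CPM, with overlap at CD36+ NK 2 and CD36- NK 2 and a log2 fold change of 0.68 ± 0.283 (SE; adjusted p = 0.182). Chac1 and Chac2, which cleave glutathione inside the cell, had log2 fold changes of 0.58 with an interval of -0.52 to 1.68 and of -0.01 with an interval of -0.84 to 0.81, both from low counts. Ggct, the cyclotransferase that releases oxoproline, was lower in every CD36+ NK library, at 25.5, 29.9 and 29.1 CPM against 30.7, 35.3 and 33.2 CPM, but by a log2 fold change of only -0.23 (adjusted p = 0.263). Oplah, which opens oxoproline to glutamate, was also lower in every CD36+ NK library, at 7.12, 6.03 and 11.1 CPM against 12.1, 12.1 and 15.7 CPM, with a log2 fold change of -0.72 ± 0.254 (SE; adjusted p = 0.122). Oplah overlaps Smpd5 on the opposite strand, whose log2 fold change was -1.25, so its counts are uncertain. Ggt7 had 13, 3 and 0 counts in CD36+ NK and 4, 18 and 28 counts in CD36- NK, and CD36+ NK 1 lay among the CD36- NK libraries. Ggt7 overlaps Acss2 on the opposite strand, whose log2 fold change was -1.23, so its few counts are uncertain.

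Polyamine and nucleotide enzymes of the entry had 0 of 4 past the adjusted p in edgeR and in DESeq2 and 0 at an unadjusted p under 0.05. Odc1, the rate-limiting enzyme of polyamine synthesis, was at 166, 132 and 213 CPM in CD36+ NK and 202, 112 and 223 CPM in CD36- NK, so that both groups spanned almost the same range. Its log2 fold change was -0.07 with an interval of -0.73 to 0.58. Srm, spermidine synthase, had 0.53 with an interval of -0.05 to 1.10. Sms, spermine synthase, had -0.32 with an interval of -0.64 to 0.01, and Rrm2b, a ribonucleotide reductase subunit, had -0.06 with an interval of -0.32 to 0.19. Txndc12, a thiol oxidoreductase of the endoplasmic reticulum, was at 36.4, 38.3 and 38.6 CPM against 36.1, 34.0 and 35.1 CPM, a log2 fold change of 0.11 with an interval of -0.11 to 0.32. Lancl1, a glutathione-binding protein, was lower in every CD36+ NK library, at 23.7 to 25.5 CPM against 27.3 to 29.0 CPM, by a log2 fold change of only -0.19 (adjusted p = 0.303).

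Single libraries shaped many of these values. CD36- NK 3 held the lowest value of the 6 libraries in 20 of the 42 genes, or 47.6%, beside 25.7% of all tested genes, and CD36+ NK 3 held the highest in 13, or 31.0%, beside 20.5%. Among the summed levels by role, NADPH supply was at 397 CPM in CD36- NK 3 and at 606 to 740 CPM in the other 5 libraries, and the peroxidases were at 309 CPM in CD36- NK 3, at 473 and 495 CPM in the other CD36- NK libraries and at 684 to 768 CPM in CD36+ NK. The macrophage and Kupffer sum was likewise lowest in CD36- NK 3, at 2422 CPM, and highest in CD36+ NK 3, at 9292 CPM, while the NK lineage sum was highest in CD36- NK 3, at 8210 CPM, and lowest in CD36+ NK 3, at 1207 CPM. Their part in the differences of the glutathione genes was not tested.

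**Figure D4:**
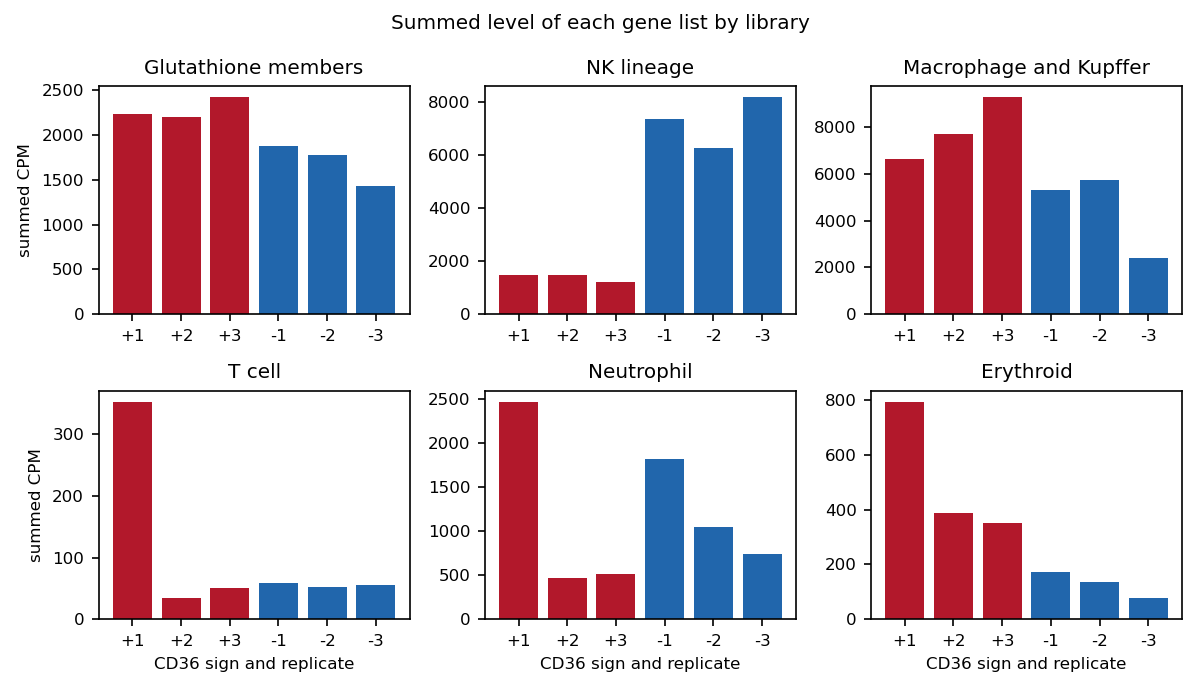
Summed CPM in each library of the 48 glutathione genes and of 5 marker lists, each panel on its own axis from 0, with CD36+ NK in red and CD36- NK in blue. The glutathione sum is 2198 to 2426 CPM in CD36+ NK and 1430 to 1882 CPM in CD36- NK, lowest in CD36- NK 3 as for macrophage markers, and T cell markers stand out in CD36+ NK 1.

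The library names come in 2 written forms, which may or may not mark separate runs. CD36+ NK 1 and CD36- NK 1 share a form, and the other 4 libraries share the other. Within the first form the log2 ratio of CD36+ NK to CD36- NK was -2.79 for Gpx8, 1.66 for Anpep, 0.72 for Lap3 and 0.60 for Gpx1, each from 1 library against 1. Within the other it was -2.26, 1.32, 1.36 and 1.16, each from 2 libraries against 2. The direction of these 4 genes was the same in both forms, but with the form as a block in the fit Lap3 and Gpx1 no longer passed, at an adjusted p of 0.0544 and 0.0578. Ggt7, by contrast, had a log2 ratio of 1.91 in the first and -4.29 in the other, from few counts that may be shared with Acss2.

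Redox genes that the KEGG entry leaves out were read from the same fit. Of 41 genes of cystine import, glutathione transport, glutaredoxins and glyoxalases, thioredoxins and peroxiredoxins, NRF2 regulators and targets, and the pentose phosphate pathway, 39 were tested. Only 1 gene was called higher and 0 were called lower, and 3 passed the adjusted p at any fold, all upward and all among the 10 genes of NRF2 regulators and targets. These are 2.56% called higher and 7.69% past the adjusted p, beside 2.98% and 10.5% of all tested genes. DESeq2 called 3 of the 39, or 7.69%, beside 7.74% of all tested genes, and 12, or 30.8%, reached an unadjusted p under 0.05 in edgeR beside 26.3%. The median log2 fold change was 0.13, and 14 genes, or 35.9%, were higher and 1, or 2.56%, was lower in every CD36+ NK library, beside 17.0% and 15.7% of all tested genes. The lower gene was Txnrd1, with a log2 fold change of -0.30 (edgeR, adjusted p = 0.143). Among the 10 NRF2 regulators and targets, 7 had a log2 fold change above 0 and 3 below.

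Nfe2l2, which encodes NRF2 itself, was at 124, 152 and 149 CPM in CD36+ NK and 91.5, 99.6 and 86.3 CPM in CD36- NK, with a log2 fold change of 0.61 ± 0.112 (SE; adjusted p = 0.0186). Bach1, a repressor that competes for the same sites, was at 116, 130 and 130 CPM against 96.0, 90.2 and 88.3 CPM, with 0.46 ± 0.0885 (SE; adjusted p = 0.0228). Osgin1, an NRF2 target induced by oxidative stress, was at 22.8, 17.1 and 27.4 CPM against 12.5, 9.64 and 10.5 CPM, with 1.04 ± 0.202 (SE; adjusted p = 0.0227). The groups did not overlap for any of these 3 genes. Without CD36+ NK 3, CD36- NK 1 or CD36- NK 3 the adjusted p was 0.0747, 0.0684 and 0.0598 for Nfe2l2, 0.0898, 0.0561 and 0.0617 for Bach1, and 0.0754, 0.0566 and 0.0780 for Osgin1, and without CD36+ NK 2 it was 0.0755 for Nfe2l2 and 0.0898 for Bach1. The log2 fold changes were 0.56 to 0.59 for Nfe2l2, 0.42 to 0.48 for Bach1 and 0.87 to 1.14 for Osgin1 in these omissions, near the values from all libraries.

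Other genes that define this response did not pass in the edgeR fit of all 6 libraries. Hmox1, heme oxygenase, was at 654, 712 and 1632 CPM against 93.9, 315 and 59.4 CPM, without overlap, and the spread left an adjusted p of 0.0501 at a log2 fold change of 2.68 ± 0.679 (SE). Hmox1 did pass in DESeq2 (adjusted p = 0.0176), with upper-quartile factors (0.0488), among genes with at least 10 counts in every library (0.0493), with the pairs of library names as a block (0.00568) and without CD36- NK 2 (0.00991), where its log2 fold change was 3.70. The order of the 6 libraries by Hmox1 was that of the macrophage and Kupffer sum, whose part in the result was not tested. Slc7a11, the cystine importer that feeds glutathione synthesis, was at 4.81, 2.72 and 2.99 CPM against 2.46, 1.77 and 0.977 CPM, with 0.99 ± 0.394 (SE; adjusted p = 0.163). Keap1, the adaptor that keeps NRF2 low, had a log2 fold change of -0.12 with an interval of -0.40 to 0.17, and Nqo1, a standard NRF2 target, had 0.97 with an interval of -0.60 to 2.54 from 4 to 29 counts per library, and 0.21 without CD36+ NK 1 and 1.57 without CD36- NK 1.

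Low counts kept the remaining genes of the entry out of the main fit. Among the 48 these were Gsto2, Ggt1, Gsta3, G6pd2, Gstm7 and Gstp2. When every gene with at least 10 counts over the 6 libraries was fitted in edgeR, the first 5 had an adjusted p of 0.64 to 0.981. Gstp2 passed, but it met that minimum only through CD36+ NK. Ggt1, the classical gamma-glutamyl transferase, had 36, 3 and 0 counts in CD36+ NK and 10, 5 and 0 counts in CD36- NK, so CD36+ NK 1 held most of its reads. Under the count minimum were 20 genes of the entry, and 15 of them were at 0 in every library, including the alpha class genes Gsta1, Gsta2 and Gsta5, the peroxidases Gpx2, Gpx5 and Gpx6, and Nat8 with 4 of its relatives. At this depth their transcripts were not detectable, which does not show that they are absent.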

How the data were processed

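RNA was sequenced from 3 CD36+ NK and 3 CD36- NK libraries of fibrotic mouse liver. The deposited counts are raw: the authors passed reads through Seqtk and HISAT2 2.0.4, and StringTie gave the number of fragments for each gene. The deposited FPKM columns are scaled to gene length and library total and were used here only to set levels of different genes side by side. The table names no genome build, the submitters' processing notes name a rat build while the identifiers are those of mouse, and 0 of the 48 genes had the coordinates of a GRCm38 annotation, so the table's coordinates are printed as given. The lines of 2 genes were broken and were rejoined.

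Counts were fitted for all genes with edgeR 4.0.16 (limma 3.58.1, R 4.3.3), with TMM factors, filterByExpr at a minimum count of 10, glmQLFit and glmQLFTest, and p-values were adjusted by the Benjamini-Hochberg method over 14761 genes. CPM values use the TMM factors. Alternatives were DESeq2 1.42.0, upper-quartile factors, other count filters, a fold threshold of 1.5 and the omission of each library. Further alternatives were blocks for the replicate number, the form of the library name or assumed pairs of library names. The fit was tested on simulated counts. Replicates of a group differed by 15 to 29.6 times the sampling variance, so none was a repeat deposit. The precision rests on 10292480 to 13787189 counts per library and on the spread of 3 libraries.

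The members and gene lists were chosen with earlier results of these data known. Named were the genes past an adjusted p of 0.05, the 2 of highest mean FPKM in each role, and 13 enzymes chosen by function. Pgd, Idh2, Gpx3, Gpx7, Gstt3, Gsta4, Gstp1, Ggt7, Oplah, Sms, Rrm2b, Hmox1, Txnrd1, Lyz2, Cd14, Xcr1, Clec9a, Itgax, Cd3d, Cd3e, Cd3g, Trac, Trbc2, Cd4, Pdgfrb, Pf4, Ppbp, Itga2b, Gp1bb, Pecam1, Stab2, Cd8a, the overlapping genes and those with few counts were added after their values were seen. Groups follow the sample titles. No label says that the numbers in the titles pair the samples. The correlations of same-numbered deviations were 0.367, 0.0871 and -0.086, which do not decide it. Overlapping genes and near-identical copies may share reads, which applies to 17 members that overlap another gene with at least 10 counts.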

Additional observations from a re-analysis of the deposited data

How the results depend on the processing

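The count of genes called lower in CD36+ NK was 1 (Gpx8) in every alternative. The 2 called higher became 4 with DESeq2, 0 with the replicate number as a block and 1 with the form of the library name as a block. They became 4 with the assumed pairs of library names as a block, and 0 to 5 when a library was left out. Calls over all genes moved too, from 880 to 1143, 560, 912 and 1061 in the same order, and to 417 to 1160 without a library. The 4 genes past the adjusted p at any fold became 7, 1, 2 and 9, and 1 to 7 without a library. They became 5 with upper-quartile factors, 5 with at least 10 counts in every library and 3 with at least 10 counts over the libraries. For the 41 other redox genes the 1 called became 3 with DESeq2, 2 with upper-quartile factors, 2 with at least 10 counts in every library, 3 with pairs by name form and number, and 0 to 2 without a library. The replicate block took the adjusted p of Anpep to 0.0689, Lap3 to 0.102, Gpx1 to 0.0709 and Bach1 to 0.0608. The log2 fold changes of Anpep, Lap3 and Gpx1 were then 1.47, 1.13 and 1.01. No label says whether the replicate numbers pair the samples, so what this block means for these genes is not known. With the name form as a block, Lap3 was at 0.0544 and Gpx1 at 0.0578. When every gene with at least 10 counts over the 6 libraries was tested, the 2 called higher were Anpep and Gstp2, with Lap3 at 0.0553 and Gpx1 at 0.0514. Gstp2 met that minimum only through its CD36+ NK counts. Of 538 values of the 42 tested genes, 506 stayed on their side of the threshold, 19 were no longer past it and 13 came to pass it. None that was called changed sign, and 15 of the 506, all of genes that were not called, had the opposite sign. The causes were not tested. How depth and the number of libraries limit the calls was not tested.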
